A study of Sus scrofa with 6 samples.

Results

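EDN1, EDNRB, HAND2, DLX1, DLX2, DLX3 and DLX4 were followed across pig bone marrow stromal cultures from the lower jaw and from the tibia. EDN1 and EDNRB encode a ligand and a receptor of the endothelin pathway, and the other 5 encode transcription factors that pattern the embryonic jaw, of which HAND2, DLX3 and DLX4 lie downstream of endothelin in the mouse. They were taken by gene symbol from 11078 genes that had a probe set with a single symbol in the platform annotation. The choice was made with earlier results of these data known. Each had exactly 1 such probe set among the 27558 on the array. The probe set numbers were 15307657 for EDN1, 15205412 for EDNRB, 15223621 for HAND2, 15236592 for DLX1, 15236596 for DLX2, 15212141 for DLX3 and 15208208 for DLX4.

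Endothelin 1 is a secreted peptide that is cut from a larger precursor and binds G protein-coupled receptors. In mouse and fish embryos it reaches cranial neural crest cells of the first pharyngeal arch through the type A receptor and gives them a lower jaw identity. The DLX homeobox genes form a nested code along the same arch, with DLX1 and DLX2 active in both upper and lower jaw and DLX3 and DLX4 further towards the tip of the lower jaw. HAND2, a bHLH factor downstream of the signal, patterns that tip. DLX genes are also used later by osteoblasts, in the limbs as well as in the jaw.

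The study compared mesenchymal stem cell cultures of the mandible with those of a long bone, with 6 arrays in all. Mandibular cultures (n = 3) were grown from marrow of the mandibular symphysis, which joins the lower jaw in front, and tibial cultures (n = 3) from marrow of the tibia. All donors were female American Yorkshire pigs aged 4 months, and all cultures were primary (passage 0) and grown to 80% confluence. The design text gives 3 pigs as the donors of both marrows, so arrays of different sites may share an animal, and no label says which. Unsorted marrow was plated on plastic, per the labels' protocols, which leaves other adherent cells in the cultures.

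Levels are the authors' RMA values on the log2 scale, where a difference of 1 is a doubling. The medians of the arrays lay between 5.63 and 5.71 and their lower quartiles between 3.86 and 3.94. The table holds no detection calls, so a level near or under the lower quartile cannot be told from background. Precision is limited by having 3 arrays a site. Stromal markers, such as the collagen genes COL1A1, COL1A2 and COL3A1 and the growth factor receptor gene PDGFRB, averaged between 9.99 and 10.13 on every array over 9 measured members, and PDGFRA, VIM and LEPR were not analysed here. Single members were less even, and CXCL12 lay far under the list mean, between 4.14 on mandibular 1 and 5.06 on tibial 2. For 3 of the 9, NT5E, CD44 and ENG, the highest and lowest arrays lay 2.08, 1.75 and 1.11 apart. The arrays did not group by site label. Over all probe sets the highest correlation of any pair of arrays, 0.991, was between mandibular 3 and tibial 3. The positional gene HOXA7, which marks the trunk and limbs, measured 5.26, 8.40 and 5.23 on mandibular 1, 2 and 3 and 8.01, 7.92 and 5.89 on tibial 1, 2 and 3. Mandibular 2 and tibial 3 thus stood apart from the other arrays of their label, and differences of the 7 genes are also given without single arrays.

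None of the 7 genes passed the test between mandibular and tibial cultures. In limma 0 of 7 had an adjusted p under 0.05, as did 0% of all probe sets, and the adjusted p was 0.9995 for each of the 7. At an unadjusted p under 0.05 there were also 0 of 7, where 3.03% of all probe sets were under that limit. The mean was higher in mandibular cultures for 6 of 7 genes, where 51.0% of all probe sets had a difference above 0, and the median difference of the 7 was 0.37 against 0.00 for all probe sets. For none of the 7 genes were the mandibular and tibial values free of overlap, which was the case for 6.92% of all probe sets. In bulk cultures fewer cells that express a gene and less RNA per cell cannot be told apart.

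The 7 genes varied widely between single arrays. For all 7 the highest and the lowest of the 6 arrays lay at least 1 log2 unit apart, as they did for 16.1% of all probe sets, and for 4 of 7 they lay at least 2 apart, as for 3.60% of all probe sets. EDNRB had the widest range of the 7, 6.49, and DLX1 the narrowest, 1.03. The median range was 2.18 over the 7 genes and 0.53 over all probe sets. The plot of levels by array shows that the arrays responsible differed from gene to gene. Because the 7 genes were chosen with earlier results of these data known, the shares above describe them and test nothing. Of their measured paralogues, EDN3 had a range of 0.34, HAND1 of 0.49 and EDNRA of 1.99.

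**Figure D1:**
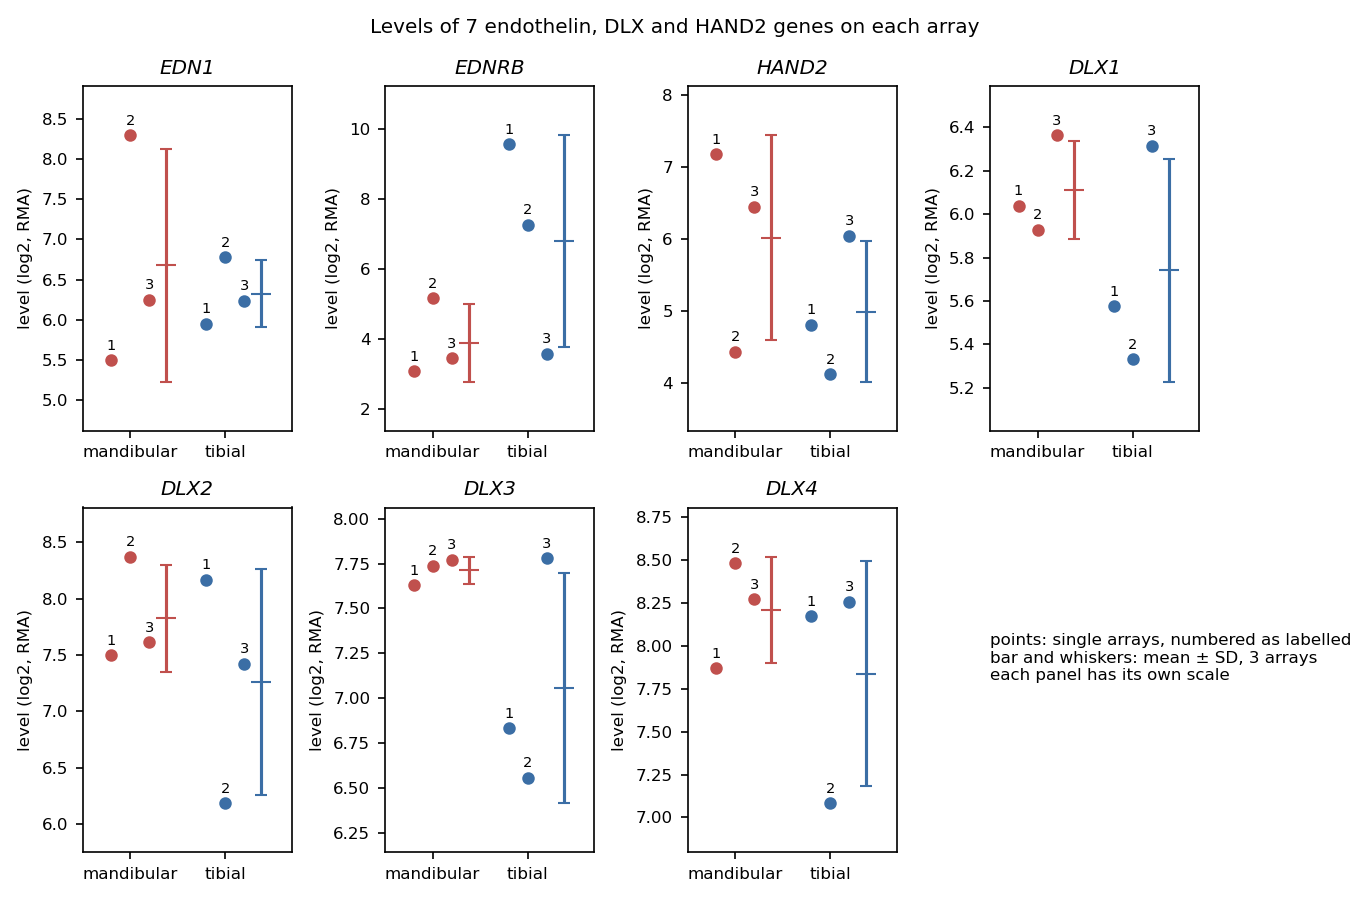
Level on each array (log2, RMA, vertical axis, with its own scale in each panel) of the 7 genes in mandibular and tibial cultures. Points are single arrays numbered as labelled, and the bar with whiskers is the mean ± SD of 3 arrays. Mandibular and tibial points overlap in every panel, with EDNRB far higher on tibial 1 and 2 than on tibial 3, EDN1 highest on mandibular 2, and HAND2 lowest on mandibular 2, tibial 1 and tibial 2.

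The ligand gene EDN1 measured 5.49, 8.30 and 6.25 on mandibular 1, 2 and 3, against 5.95, 6.78 and 6.24 on tibial 1, 2 and 3. Mandibular 2 was the highest array and mandibular 1 the lowest, with all tibial levels between them. The mean was 6.68 ± 1.45 in mandibular and 6.32 ± 0.42 in tibial cultures (SD, n = 3 each). The difference was 0.36 (SE 0.68), with a 95% interval from -1.28 to 1.99, so a difference of either sign is compatible with these arrays. Without mandibular 2 the direction turned, to -0.45.

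In their mean, genes of the interferon response were also highest on mandibular 2, though OASL was highest on tibial 1. The mean level of 11 measured interferon genes was 5.89, 8.15 and 5.33 on mandibular 1, 2 and 3, and 6.03, 6.23 and 5.50 on tibial 1, 2 and 3. Their median difference was 0.57, with 10 of 11 members higher in mandibular cultures, and it was -0.28 without mandibular 2. MX1, an antiviral GTPase gene, reached 11.25 on mandibular 2, with a lowest level of 7.48 and a next highest of 8.82 elsewhere. Endothelial cells are the best known source of endothelin 1. The mean of 9 endothelial markers was 4.84, 5.32 and 4.93 on mandibular 1, 2 and 3, and 5.18, 4.996 and 4.85 on tibial 1, 2 and 3. SOX17, PECAM1, CLDN5 and ESAM, the markers with the highest levels, differed by 0.01, -0.55, 0.09 and -0.54. Of these CLDN5 had its highest level on mandibular 2, SOX17 on mandibular 1, and PECAM1 and ESAM on tibial 1. FLT1, a receptor gene for vascular endothelial growth factor chosen here after its values were seen, did stand out there, with 8.14 on mandibular 2 and no more than 4.91 elsewhere. The part of interferon or endothelial genes in the EDN1 level was not tested.

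Among 1636 other genes with a symbol and a range of at least 1, the profile over the 6 arrays most like that of EDN1 was that of GLDN, which encodes the adhesion protein gliomedin. The likeness is the root mean square difference between levels after each gene is centred on its own mean, and it was 0.29 log2 units for GLDN. ADGRG1, an adhesion G protein-coupled receptor gene, followed at 0.32, and the interferon-inducible GTPase gene GVIN1 at 0.37. All 3 had their highest level on mandibular 2, at 8.24, 9.10 and 6.55.

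No gene of the ligand and processing list passed the test. Of its 7 measured members, EDN1 included, 5 were higher and 2 lower in mandibular cultures, and the median difference was 0.23, or 0.10 without tibial 2. EDN3, the ligand that acts with EDNRB in melanocyte and enteric nerve precursors, measured 6.02, 5.97 and 6.05 on the mandibular arrays and 6.29, 6.31 and 6.11 on the tibial arrays. These did not overlap, which in this direction held for 3.57% of all probe sets, and the difference was -0.22 (SE 0.11; unadjusted p = 0.0919 in limma). ECE1, the protease that releases mature endothelin, differed by -0.32 (SE 0.25), the related ECEL1 by 0.41 (SE 0.28) and MME, a peptidase that degrades endothelins and other peptides, by 0.58 (SE 0.36). MME averaged 3.61 in mandibular and 3.04 in tibial cultures, levels that cannot be told from background. EDN2 was not analysed here.

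The receptor gene EDNRB measured 3.08, 5.16 and 3.45 on mandibular 1, 2 and 3, against 9.56, 7.27 and 3.58 on tibial 1, 2 and 3. Tibial 1 and tibial 2 stood above every mandibular array, while tibial 3 lay among the mandibular levels, and mandibular 1, mandibular 3 and tibial 3 were under the lower quartile of the arrays. The mean was 3.89 ± 1.11 in mandibular and 6.80 ± 3.02 in tibial cultures (SD, n = 3 each), a difference of -2.91 (SE 1.44). No fold is given, since 2 of the 3 mandibular levels cannot be told from background. The 95% interval ran from -6.36 to 0.54, and the unadjusted p was 0.0856 in limma. Without tibial 3 the sites no longer overlapped and the difference was -4.52 (adjusted p = 0.180 in limma), and without tibial 1 it was -1.53.

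The mean of macrophage and monocyte markers put the 6 arrays in the same order as EDNRB. Over 14 measured markers it was 4.96, 6.33 and 5.02 on mandibular 1, 2 and 3, against 8.62, 7.99 and 5.56 on tibial 1, 2 and 3. All 14 were lower in mandibular cultures, 0 passed the test, and the median difference was -2.14. The complement genes C1QA, C1QB and C1QC differed by -2.10, -3.00 and -2.90, and the lipopolysaccharide co-receptor gene CD14 by -0.77. The list median was -3.23 without tibial 3 and -1.45 without tibial 1. The part of macrophages in the EDNRB level was not tested.

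The gene with the profile nearest to EDNRB was MSR1, a macrophage scavenger receptor gene, at a root mean square difference of 0.16. MSR1 measured 3.34, 5.39 and 3.66 on mandibular 1, 2 and 3, and 9.51, 7.50 and 4.09 on tibial 1, 2 and 3. LCP1, the leukocyte actin-bundling protein gene, followed at 0.34 and the fatty acid transporter gene CD36 at 0.35. By comparison, the nearest of the other 6 genes to EDNRB were EDN1 at 2.45, DLX2 at 2.46 and DLX4 at 2.53, practically tied. The measure is not scaled to a gene's range, and that of EDNRB, 6.49, was the widest of the 7.

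Other cells that use EDNRB are endothelial cells and derivatives of the neural crest. Of 9 endothelial markers 5 were higher and 4 lower in mandibular cultures, with a median difference of 0.01, and 0 passed the test. PECAM1, an adhesion gene that myeloid cells also express, measured 5.60, 5.63 and 5.58 on mandibular 1, 2 and 3, against 6.36, 6.24 and 5.84 on tibial 1, 2 and 3. ESAM, a junction gene, measured 5.18, 5.34 and 4.94 against 5.99, 5.57 and 5.53. For both the sites did not overlap, which in this direction held for 3.57% of all probe sets. Their highest arrays were tibial 1 and tibial 2, as for EDNRB. TEK and VWF, chosen after their values were seen, also had their highest levels on tibial 1 and tibial 2. KDR and FLT1, chosen in the same way, went in the other direction, by 0.45 and 1.38. The sites did not overlap for KDR, whose levels all lay under the lower quartile of the arrays. The part of endothelial cells in the EDNRB level was not tested. For Schwann cells and melanocytes the mean of 8 measured markers lay between 4.77 and 5.04 on all 6 arrays, and the median difference was -0.03. The neural crest factor gene SOX10 lay between 5.99 and 6.34, the nerve growth factor receptor gene NGFR between 6.10 and 6.42 and MITF, a melanocyte factor gene that macrophages and osteoclasts also use, between 6.33 and 7.72. MITF was highest on tibial 1. MLANA, a melanocyte antigen gene, measured 7.52, 6.47 and 7.48 on mandibular 1, 2 and 3, and 6.68, 6.29 and 7.95 on tibial 1, 2 and 3. For smooth muscle and pericyte markers, with 7 measured members, the median difference was 0.04, and TAGLN, ACTA2, CNN1 and CSPG4 differed by -0.06, 0.04, -0.28 and 0.14.

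**Figure D2:**
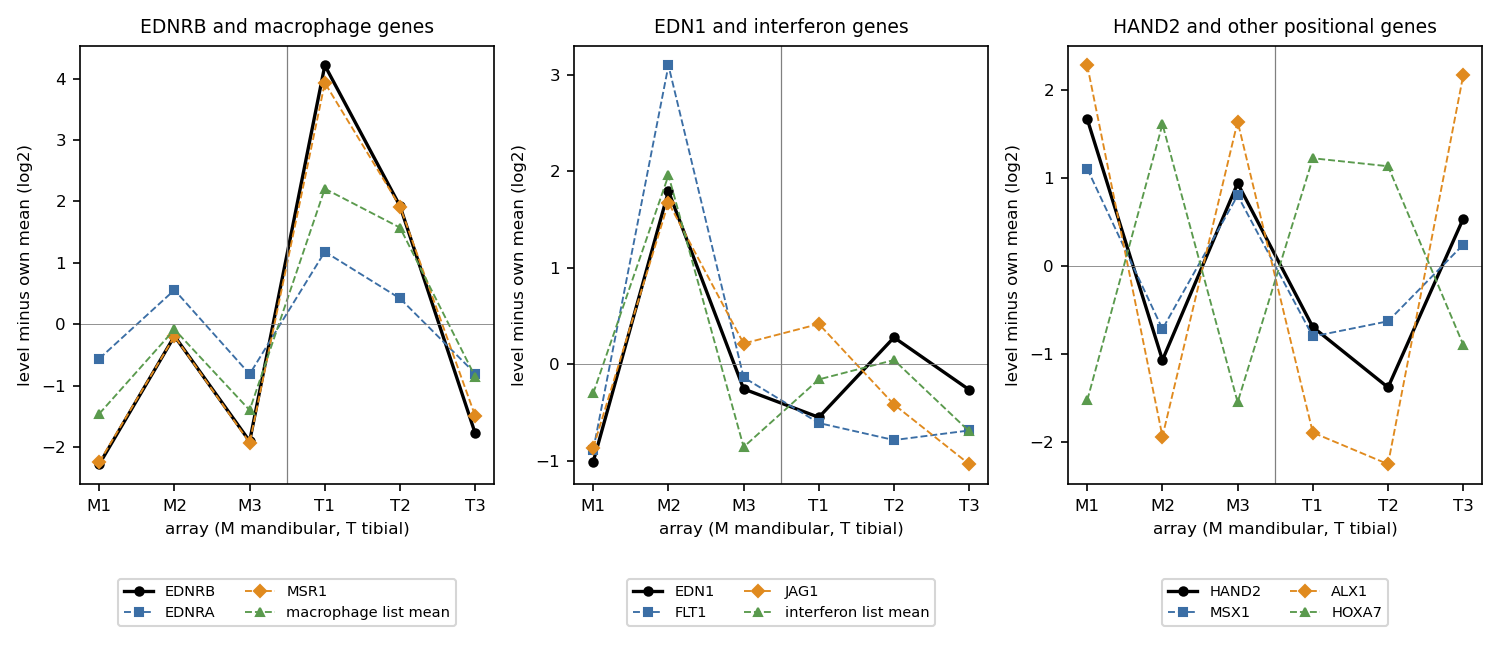
Level on each array minus the gene's or list's own mean (log2, vertical axis), with mandibular arrays M1 to M3 on the left and tibial arrays T1 to T3 on the right of the grey line. EDNRB is drawn with EDNRA, MSR1 and the macrophage list mean, which all peak on T1, EDN1 with FLT1, JAG1 and the interferon list mean, which all peak on M2, and HAND2 with MSX1 and ALX1, which are low on M2, T1 and T2, where HOXA7 is high.

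EDNRA, the type A receptor through which endothelin 1 acts on the jaw neural crest, was spread less widely than EDNRB. It measured 7.28, 8.40 and 7.03 on mandibular 1, 2 and 3, against 9.02, 8.26 and 7.04 on tibial 1, 2 and 3. Tibial 1, mandibular 2 and tibial 2 were the highest arrays, so both sites held high and low levels. The difference was -0.54 (SE 0.56). HAND2, which lies downstream of this receptor in the mouse jaw, was low on those 3 arrays.

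Of 13 measured receptor and signalling genes, 4 were higher and 9 lower in mandibular cultures, 0 passed the test, and the median difference was -0.06, or -0.21 without tibial 3. The beta-arrestin genes ARRB1 and ARRB2, whose products uncouple and internalise activated receptors, differed by -1.64 (SE 0.73) and -0.54 (SE 0.26). ARRB1 measured 4.96, 6.09 and 5.40 on mandibular 1, 2 and 3, against 8.08, 7.91 and 5.37 on tibial 1, 2 and 3, so its high arrays were those of EDNRB. PLCB4, a phospholipase gene of the endothelin signal in the arches, differed by 0.51 (SE 0.36). MEF2C, a transcription factor gene that the signal acts through in the jaw, lay between 7.91 and 8.81 on all 6 arrays and GNAQ, which encodes the G protein subunit that receptors of this kind activate, between 9.85 and 10.40. These last 2 genes were chosen after their values were seen.

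HAND2 measured 7.17, 4.43 and 6.44 on mandibular 1, 2 and 3, against 4.81, 4.12 and 6.04 on tibial 1, 2 and 3. Mandibular 1, mandibular 3 and tibial 3 formed the upper set of levels and mandibular 2, tibial 1 and tibial 2 the lower, so each site had arrays in both. The mean was 6.01 ± 1.42 in mandibular and 4.99 ± 0.97 in tibial cultures (SD, n = 3 each). The difference was 1.03 (SE 0.78), with a 95% interval from -0.83 to 2.88. No fold is given, since the tibial 2 level lay near the lower quartile of the arrays and cannot be told from background. Without mandibular 2 the sites did not overlap and the difference was 1.82 (unadjusted p = 0.0208, adjusted p = 0.9997 in limma), while without mandibular 1 it was 0.45.

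ALX1, LHX8 and PAX9 had the same upper and lower arrays as HAND2. ALX1, which encodes a homeobox factor of the developing face, measured 8.08, 3.86 and 7.44 on mandibular 1, 2 and 3, and 3.90, 3.54 and 7.97 on tibial 1, 2 and 3. LHX8, a LIM homeobox gene active in embryonic jaws and teeth, measured 8.26, 3.70 and 8.25 on the mandibular arrays and 4.77, 4.10 and 8.67 on the tibial arrays. The low levels of ALX1, and those of LHX8 on mandibular 2 and tibial 2, lay near or under the lower quartile and cannot be told from background. PAX9, a paired box gene needed for teeth, measured 7.35, 5.78 and 7.35 against 5.01, 5.75 and 7.80. In this list of 7 genes 3 were higher and 4 lower in mandibular cultures, with a median difference of -0.02. LHX6, the close relative of LHX8, lay between 5.69 and 6.06 on all 6 arrays and did not follow it. HOXA9 and HOXD10, posterior HOX genes of the limb, ran the other way, with 6.97 and 6.26 on mandibular 2 and 5.10 and 4.85 on tibial 3.

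In profile CD86, a co-stimulatory ligand gene of antigen-presenting cells, was nearest to HAND2, at a root mean square difference of 0.32, with 9.85, 7.80 and 9.87 on mandibular 1, 2 and 3 and 8.44, 7.44 and 9.64 on tibial 1, 2 and 3. FERMT1, an integrin activator gene of epithelia, followed at 0.38 and the small heat shock gene HSPB3 at 0.39. CD86 was thus low on tibial 1 and tibial 2, where the macrophage markers were highest. Of the other 6 genes DLX1 was nearest to HAND2, at 0.88.

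HAND2 binds DNA as a dimer with ubiquitous bHLH proteins, and all 5 listed partner genes were measured. Of these 2 were higher and 3 lower in mandibular cultures, 0 passed the test, and the median difference was -0.07. TWIST1, which competes for the same partners and opposes HAND2 in limb and jaw, differed by -0.46 (SE 0.24). It measured 8.58, 8.11 and 8.27 on mandibular 1, 2 and 3, against 9.17, 8.87 and 8.31 on tibial 1, 2 and 3, with tibial 1 and tibial 2 above the rest. TWIST2 and the E protein genes TCF3 and TCF4 differed by -0.07, 0.04 and -0.09. HAND1, the paralogue of HAND2, lay between 2.15 and 2.64 on all 6 arrays, under every array's lower quartile.

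The DLX genes had smaller ranges than HAND2. In vertebrate genomes they lie in pairs, and the RefSeq annotation of assembly Sscrofa11.1 places DLX1 next to DLX2 and DLX3 next to DLX4. The other pair, DLX5 and DLX6, was not analysed here.

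DLX1 measured 6.04, 5.93 and 6.36 on mandibular 1, 2 and 3, against 5.58, 5.33 and 6.32 on tibial 1, 2 and 3. Tibial 1 and tibial 2 lay under every mandibular level and tibial 3 above 2 of them. The difference was 0.37 (SE 0.27), with a 95% interval from -0.27 to 1.01. It was 0.66 without tibial 3, where the sites did not overlap (adjusted p = 0.384 in limma), and 0.16 without tibial 2.

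DLX2, which acts with DLX1 in the proximal arch, measured 7.50, 8.37 and 7.61 on mandibular 1, 2 and 3, against 8.17, 6.19 and 7.42 on tibial 1, 2 and 3. Mandibular 2 was highest and tibial 2 lowest, and tibial 1 was the second highest array. The difference was 0.57 (SE 0.51), with a 95% interval from -0.64 to 1.77. It was 1.02 without tibial 1, where the sites did not overlap (as for 17.3% of all probe sets), and 0.03 without tibial 2.

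DLX3, a gene of the lower jaw tip, of teeth, hair and osteoblasts, had the smallest unadjusted p of the 7, 0.0705 in limma. It measured 7.63, 7.74 and 7.77 on mandibular 1, 2 and 3, against 6.83, 6.56 and 7.78 on tibial 1, 2 and 3. The mandibular levels spanned only 0.14 log2 units, and tibial 3 was level with them while tibial 1 and tibial 2 were lower. The mean was 7.71 ± 0.08 in mandibular and 7.06 ± 0.64 in tibial cultures (SD, n = 3 each), a difference of 0.66 (SE 0.31), or 1.58-fold higher in mandibular cultures. The 95% interval ran from -0.07 to 1.39. Without tibial 3 the difference was 1.02, with no overlap (unadjusted p = 0.000489, adjusted p = 0.108 in limma), the smallest adjusted p of any of the 7 genes under any alternative tried.

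DLX4 measured 7.87, 8.48 and 8.27 on mandibular 1, 2 and 3, against 8.17, 7.08 and 8.26 on tibial 1, 2 and 3. Only tibial 2 stood below the other arrays. The difference was 0.37 (SE 0.34), with a 95% interval from -0.44 to 1.18. Without tibial 2 the difference was -0.0061, which turned its sign, and without tibial 3 it was 0.58. Without mandibular 1 the sites did not overlap, as for 17.4% of all probe sets, with mandibular levels higher.

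Tibial 2 was the lowest array for all 4 DLX genes. In profile DLX1 and DLX3, which are not neighbours, differed least, with a root mean square difference of 0.20. DLX2 and DLX4, DLX1 and DLX4, and the adjacent DLX3 and DLX4 were practically tied at 0.34, 0.34 and 0.35. The adjacent DLX1 and DLX2 differed by 0.66. DLX1 and DLX3 were low on both tibial 1 and tibial 2, whereas DLX2 and DLX4 were low on tibial 2 but not on tibial 1.

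Cell cycle genes were also lowest on tibial 1 and tibial 2. The mean of 8 measured members was 7.54, 7.55 and 8.44 on mandibular 1, 2 and 3, against 6.06, 6.59 and 8.03 on tibial 1, 2 and 3. All 8 were higher in mandibular cultures, 0 passed the test, and the median difference was 1.01, with ANLN, MYBL2, TPX2 and TOP2A at 1.06, 1.08, 1.22 and 0.94. The list median was 1.62 without tibial 3 and 0.54 without tibial 1. The part of proliferation in the DLX levels was not tested. Epithelial markers, of interest because DLX3 and DLX4 are also expressed in epithelia, had a list mean between 4.72 and 5.08 on all arrays, a median difference of -0.12, and KRT19, CLDN4, KRT8 and KRT18 at -0.04, -0.15, -0.33 and -0.09. The list of immediate early and heat shock genes, which respond to handling, had a median difference of 0.04 over 6 members, with EGR1, JUN, FOS and ATF3 at 0.11, 0.02, -0.24 and -0.17.

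Several genes tracked the DLX genes closely. NR2F1, an orphan nuclear receptor gene of cranial neural crest and a member of the upper jaw list, was the third nearest to DLX1, at 0.09, after BEX1 and TEX30, at 0.07 and 0.08. REEP1, SIPA1L3 and the TGF-beta binding protein gene LTBP3 were nearest to DLX3, at 0.13, 0.14 and 0.15. SYNJ2, the connective tissue growth factor gene CTGF and SPRY2, an inhibitor of FGF signalling, were nearest to DLX4, at 0.11, 0.12 and 0.16. PALM2, the lipoprotein receptor gene VLDLR and the small heat shock gene CRYAB were nearest to DLX2, at 0.23, 0.25 and 0.25. CTGF measured 12.25, 12.64 and 12.44 on mandibular 1, 2 and 3, and 12.14, 11.34 and 12.40 on tibial 1, 2 and 3, lowest on tibial 2 like DLX4. Profiles of 6 arrays with a small range can be alike without any link between the genes.

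**Figure D3:**
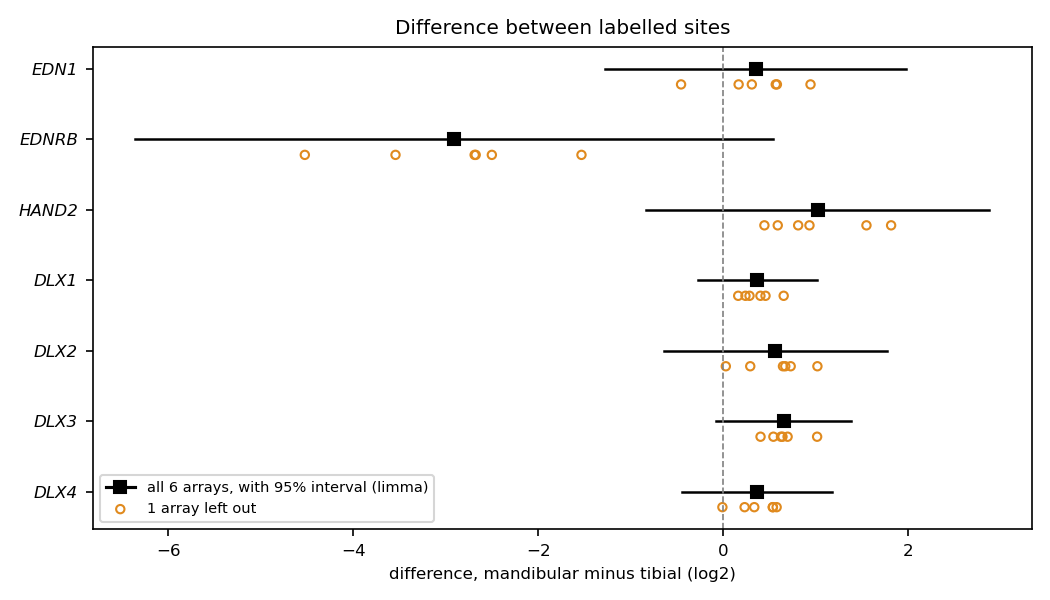
Difference between sites, mandibular minus tibial (log2, horizontal axis), for each of the 7 genes. Black squares with lines are the estimates from all 6 arrays with their 95% intervals from limma, and open circles the estimates with 1 array left out. All 7 intervals include 0, and the circles cross 0 for EDN1 (lowest -0.45) and reach -0.0061 for DLX4.

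Genes that endothelin controls in the mouse lower jaw were next compared. Of 16 listed genes 10 were measured, 8 were higher and 2 lower in mandibular cultures, 0 passed the test, and the median difference was 0.27, with 0.15 without mandibular 2 and 0.42 without mandibular 1. HAND2, DLX3 and DLX4 are among these 10. BMP4, a growth factor gene of the distal arch, measured 8.45, 8.08 and 8.28 on mandibular 1, 2 and 3, against 7.40, 7.23 and 7.85 on tibial 1, 2 and 3. It was the only one of the 10 whose sites did not overlap, which held in this direction for 3.35% of all probe sets, and differed by 0.78 (SE 0.19; unadjusted p = 0.00555, adjusted p = 0.9995 in limma). MSX1, a homeobox gene of the arch and teeth, measured 7.58, 5.76 and 7.28 against 5.67, 5.85 and 6.72, the arrangement of HAND2, with a difference of 0.79 (SE 0.51). BARX1, GSC, GBX2 and ALX4, the other non-family members measured, differed by 0.17, 0.05, 0.04 and -0.22 and are named to complete the list.

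Genes of the upper jaw were compared in the same way. Of 9 measured upper jaw genes 6 were higher and 3 lower in mandibular cultures, 0 passed the test, and the median difference was 0.32, with 0.10 without mandibular 2, 0.14 without tibial 1 and 0.17 without tibial 2. NOTCH2, TBX22, HEY1 and EMX2 differed by 0.18 (SE 0.11), -0.21 (SE 0.14), 0.55 (SE 0.37) and 0.42 (SE 0.33). HEY1, a target of Notch signalling, measured 5.60, 7.08 and 6.28 on mandibular 1, 2 and 3, and 5.58, 6.13 and 5.61 on tibial 1, 2 and 3, highest on mandibular 2 like EDN1. JAG1, the Notch ligand gene that endothelin represses in the arches of fish and mouse embryos, was also highest on mandibular 2, with 8.81, 11.34 and 9.88 on the mandibular arrays and 10.09, 9.25 and 8.63 on the tibial arrays. JAG1 was chosen after its values were seen.

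Cofactors and bone targets of DLX proteins showed no common direction. Of 10 measured genes 5 were higher and 5 lower in mandibular cultures, 0 passed the test, and the median difference was 0.01. Besides MSX1, the osteocalcin gene BGLAP differed by 0.76 (SE 0.50), the bone sialoprotein gene IBSP by -0.74 (SE 0.85) and BMP2 by 0.14 (SE 0.14). IBSP, a late osteoblast gene, ranged from 5.77 on mandibular 1 to 9.42 on tibial 2, the array where the DLX genes were lowest. Its next highest level, 8.49, was on mandibular 2, where DLX2 and DLX4 were highest.

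**Figure D4:**
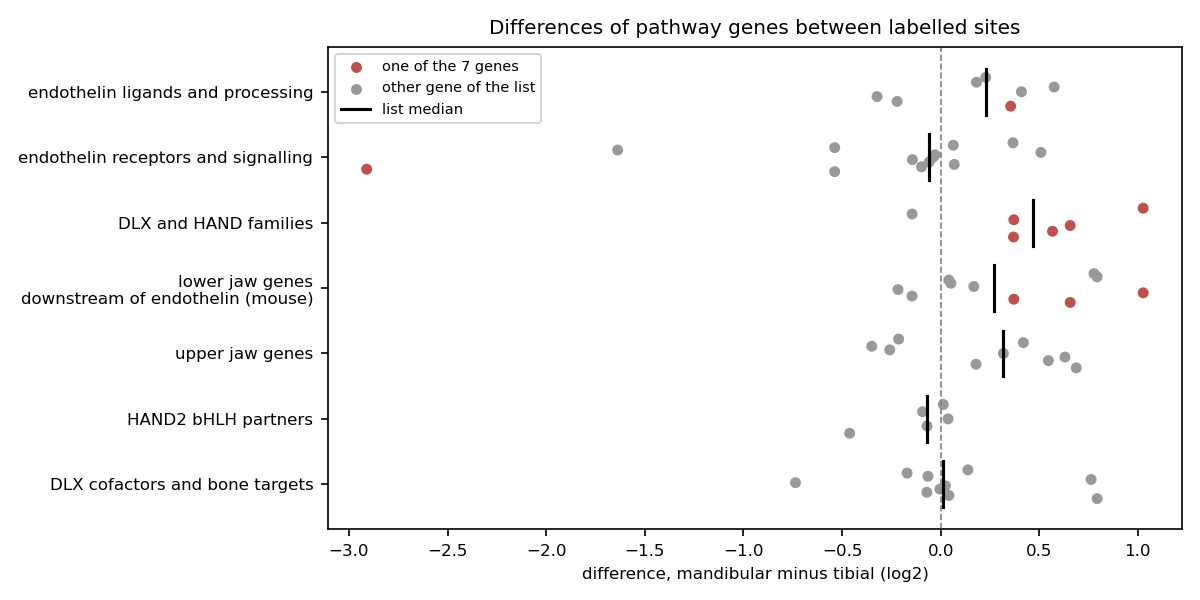
Difference between sites, mandibular minus tibial (log2, horizontal axis), of each measured gene in 7 pathway lists. Red points are the 7 genes described, grey points other genes of the list, and black bars the list medians, which lie between -0.07 for HAND2 bHLH partners and 0.47 for the DLX and HAND families. EDNRB, at -2.91, and ARRB1, at -1.64, lie farthest from 0.

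Over the 7 genes together, mandibular 1, tibial 1 and tibial 2 were nearest to an array of their own site, while mandibular 3 and tibial 3 were nearest to each other and mandibular 2 was nearest to tibial 3. The smallest root mean square difference over the 7 levels, 0.18, was between mandibular 3 and tibial 3, and the next were 0.47 between mandibular 1 and mandibular 3 and 0.58 between mandibular 1 and tibial 3. The largest was 2.65, between mandibular 1 and tibial 1. Mandibular 3 and tibial 3 differed by 0.40 for HAND2, 0.19 for DLX2 and 0.13 for EDNRB, and by 0.05 or less for DLX1, DLX4, EDN1 and DLX3. Without EDNRB, which dominates these distances, mandibular 3 and tibial 3 were still the closest pair, at 0.18, and mandibular 2 was the array of its site farthest from mandibular 1, at 1.66. Other neighbours changed without EDNRB. Tibial 1 was then nearest to tibial 3, at 0.78 against 1.03 to tibial 2. Mandibular 2 was then nearest to tibial 1, at 1.06 against 1.15 to tibial 3. Mandibular 2 was at 1.22 from tibial 3, 1.31 from mandibular 3 and 1.48 from tibial 2 over all 7 genes, near none of them. Over the same genes tibial 1 and tibial 2 were no nearer to any array, at 1.29 from each other and farther from the rest.

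**Figure D5:**
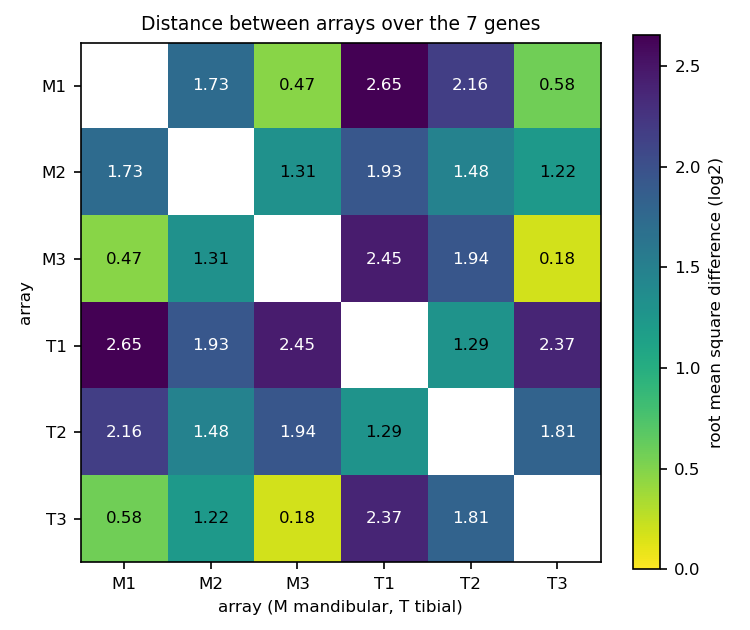
Root mean square difference between the levels of the 7 genes (log2 units, in each square and by colour) for every pair of arrays, M1 to M3 mandibular and T1 to T3 tibial. M3 and T3 are closest at 0.18, and M1, M3 and T3 lie within 0.58 of each other. M2 lies at 1.22 or more, and T1 and T2 at 1.29 or more, from every other array.

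Leaving out single arrays changed which genes overlapped between sites. Without tibial 3, 3 of 7 (EDNRB, DLX1 and DLX3) had no overlap between sites, where 21.7% of all probe sets had none. Without mandibular 2, 2 of 7 (HAND2 and EDNRB) had no overlap, where 17.0% of all probe sets had none. None of the 7 genes reached an adjusted p under 0.05 in any of the 42 fits with 1 array left out. In the DLX and HAND families, where 5 of 6 measured genes were higher in mandibular cultures with a median difference of 0.47, the median was 0.65 without tibial 3 and 0.10 without tibial 2.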

How the data were processed

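RNA levels of 6 cultures, 3 from each site, were measured on Affymetrix arrays. The deposited values are log2 levels made by the authors with RMA, and the submitters' processing notes also name Transcriptome Analysis Console 3.0 and Affymetrix Expression Console. RMA corrects background, makes the arrays equal in distribution and summarises probes. Levels are therefore relative, and RMA removes any change that affects a whole array alike. The settings and the build were not given in the sources used here.

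In GEO's platform annotation 13157 probe sets had 1 symbol, 523 had several and 13878 had none. For each gene the probe set with the highest mean was used.

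Differences were tested in limma 3.58.1 (R 4.3.3; lmFit, then eBayes with its default variance model) as mandibular minus tibial. Tests were two-sided, p-values were Benjamini-Hochberg adjusted across the 27558 probe sets, and the threshold was 0.05. The fit was tested on simulated data. No list was tested as a set. Alternatives were a block on the sample number, median centring, filters on low levels, array weights, other variance models and the omission of each array. No label ties a number to a pig. Deviations from the site means correlated at -0.03, 0.21 and 0.47 between arrays sharing number 1, 2 and 3. Between arrays of different numbers the correlations ran from -0.49 to 0.36. With 3 arrays a site these values cannot settle whether the numbers mark pigs, so the unpaired fit was the main one.

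The genes and the 17 lists were chosen with earlier results of these data known. Genes are named by a fixed rule, with exceptions. The rule takes all 7 genes and their measured paralogues, and the 7 positional genes read beside HAND2. It adds up to 4 of each pathway list by smallest p and up to 4 of each marker list by highest mean. The 3 genes nearest in profile to each of the 7 complete it. Exceptions are the genes said to be chosen after their values were seen. NT5E, CD44, ENG, CXCL12, OASL, BARX1, GSC, GBX2 and ALX4 also lie outside the rule.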

Additional observations from a re-analysis of the deposited data

How the results depend on the processing

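No probe set passed the adjusted threshold in limma with all 6 arrays, while 836 had an unadjusted p under 0.05. Counts of passing probe sets ranged from 0 to 2 when 1 array was left out, with 2 without tibial 3 and 1 without tibial 1, and were 0 under the other alternatives. At an unadjusted p under 0.05 there were 2070 without tibial 3, 538 without mandibular 3 and 273 among probe sets with a mean above 6. With the sample number as a replicate block, 0 probe sets passed, 1511 had an unadjusted p under 0.05, and the smallest adjusted p of the 7 genes was 0.902. The correlation of deviations from the site means was -0.03 for number 1, 0.21 for number 2 and 0.47 for number 3. With so few arrays these values cannot decide whether a shared number means a shared animal. The main fit therefore did not take the numbers as pairs, and pairing by animal was not excluded.

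The 7 genes stayed short of the threshold in all 42 single omissions and in the 46 other fits. With 1 array left out the difference ranged from -0.45 to 0.95 for EDN1, from -4.52 to -1.53 for EDNRB, from 0.45 to 1.82 for HAND2, from 0.16 to 0.66 for DLX1, from 0.03 to 1.02 for DLX2, from 0.41 to 1.02 for DLX3 and from -0.0061 to 0.58 for DLX4. The sign turned for EDN1 without mandibular 2 (-0.45) and for DLX4 without tibial 2 (-0.0061). In the other alternatives the sign of all 7 held. Filters on a mean level above 6 left out EDNRB, HAND2 and DLX1. No gene had another probe set with its symbol alone, so that alternative was not run. List medians near 0 turned sign with 1 array left out, ranging from -0.15 to 0.03 for HAND2 partners, from -0.04 to 0.11 for DLX cofactors, from -0.13 to 0.05 for positional, from -0.07 to 0.06 for endothelial, from -0.14 to 0.04 for smooth muscle, from -0.14 to 0.02 for Schwann and melanocyte, and from -0.06 to 0.08 for immediate early genes. The interferon median also turned, from -0.28 to 1.101. The other 9 kept their sign. Low levels of EDNRB, HAND1, HAND2, ALX1 and LHX8 cannot be told from background.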

Other observations

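HEY2, a Notch target gene chosen after its values were seen, measured 9.12, 10.99 and 9.67 on mandibular 1, 2 and 3, and 10.54, 10.26 and 7.09 on tibial 1, 2 and 3. Its lowest level, on tibial 3, lay 3.90 below its highest, on mandibular 2. MCAM, an adhesion gene of pericytes and endothelium, measured 6.59, 8.55 and 6.68 on the mandibular arrays and 7.71, 6.28 and 6.33 on the tibial arrays, also highest on mandibular 2 and also chosen after its values were seen.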
